A study of Mus musculus with 6 samples.

Results

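Genes for proteins that bind, stabilise, destabilise or deacetylate microtubules were examined in a mouse gastric adenocarcinoma line and in its derivative selected with paclitaxel (PTX). The group, Stmn1, Map4, Map7, Map1b, Map2, Mapt, Mapre1, Mapre3, Clasp1 and Hdac6, were taken by symbol from a written list of microtubule regulators, and made up 10 of 21959 genes in the count table. The parental line, MPC, was labelled as control. The derived line, MPC-PTX, was labelled as treated with PTX over 30 cycles. Both lines carried the genotype CDH1-/-;Trp53-/-, both were grown in RPMI 1640 with 10% FBS, and all 6 libraries (3 per line) were labelled as batch 1. Each line had gone through monoclonal selection, so a comparison of the lines is a comparison of 1 selected line with 1 parental line, and selection by PTX cannot be told apart from differences between clones. The labels did not say whether replicate libraries came from separate cultures, and the p-values therefore measure the spread between these libraries, which may be technical.

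Microtubules are hollow polymers of alpha- and beta-tubulin that switch between growth and shrinkage, and PTX binds beta-tubulin inside the polymer and stabilises it. Proteins along the lattice, such as tau, MAP2 and MAP4, stabilise the polymer as well, while stathmin holds tubulin dimers and promotes shrinkage. End-binding proteins gather at growing plus ends and recruit CLASPs and other partners, and HDAC6 removes the acetyl group from alpha-tubulin in stable microtubules. These proteins are studied in cancers treated with taxanes because they act on the structure that the drug binds.

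Total counts ranged from 16574580 to 23148182 per library, and between 13897 and 14295 genes had at least 1 count. Levels are given as CPM, counts per 1000000 counts of a library after TMM scaling, which evens out differences in RNA composition. In the line labelled gastric adenocarcinoma, the 8 epithelial markers (Epcam, keratins, claudins and Elf3) summed to 9560 to 11076 CPM in MPC and 5777 to 5963 CPM in MPC-PTX, and all 8 were lower in MPC-PTX. Of 12 stomach markers only 3 (Cldn18, Muc1 and Bhlha15) passed the filter on low counts, and the secreted stomach products Tff1, Tff2, Gkn2 and Pgc had 0 counts in every library. Replicate 3 of MPC stood apart from the other MPC libraries in a way that followed transcript length and base composition, with a Spearman rho of 0.54 with length and -0.64 with GC content over 9888 genes with a mean of at least 5 CPM. That rho is across genes, which are not independent replicates, and where this library decides the call or the sign of a member or of a named gene, the value without it is given as well. MPC replicates 1 and 2 differed from each other too. A chi-square per gene, comparing the counts of 2 libraries, was 14.9 between them. It was 60.7 between MPC replicates 1 and 3, 32.2 between 2 and 3, and 1.84 to 3.36 within MPC-PTX. Leaving out replicate 3 therefore does not leave a closely matching MPC pair.

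Sequence similarity within the group bears on how far reads can be assigned to 1 gene, and the most alike members are shown first. Tau (Mapt), MAP2 and MAP4 share tubulin-binding repeats, and 1 repeat of each is printed as 30 codons of the longest annotated coding sequence, chosen by a script as the Mapt repeat closest to both relatives. Capitals mark the 4 codons for proline and 3 glycines that close the repeat. The Mapt stretch lies in 2 exons on the plus strand at chr11:104321351-104322435, the Map2 stretch in 2 exons at chr1:66433514-66438261 and the Map4 stretch in 2 exons at chr9:110078003-110079788, all on the plus strand of GRCm38 (GENCODE M21).
Mapt: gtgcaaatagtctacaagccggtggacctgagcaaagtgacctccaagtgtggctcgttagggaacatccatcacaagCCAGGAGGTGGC
Map2: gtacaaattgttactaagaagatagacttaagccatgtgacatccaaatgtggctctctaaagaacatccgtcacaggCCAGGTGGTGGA
Map4: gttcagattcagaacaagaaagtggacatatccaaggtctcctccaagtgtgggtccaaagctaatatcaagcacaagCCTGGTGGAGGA
Over these 90 bases Mapt and Map2 were identical at 66 (73.3%), Mapt and Map4 at 60 (66.7%) and Map2 and Map4 at 57 (63.3%). The longest identical run in the 3 pairs was 13 bases.

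The end-binding proteins EB1 (Mapre1) and EB3 (Mapre3) were compared over the first 90 coding bases, which open the domain that binds microtubules. Capitals mark bases that differ between them. Both stretches lie in 1 exon on the plus strand, at chr2:153746259-153746348 for Mapre1 and chr5:30861814-30861903 for Mapre3.
Mapre1: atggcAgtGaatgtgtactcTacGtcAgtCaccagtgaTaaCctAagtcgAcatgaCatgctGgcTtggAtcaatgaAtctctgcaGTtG
Mapre3: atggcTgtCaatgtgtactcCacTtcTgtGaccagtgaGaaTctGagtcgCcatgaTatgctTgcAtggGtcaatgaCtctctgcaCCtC
They were identical at 72 of 90 bases (80.0%), with no identical run longer than 11. Across whole transcripts, no stretch of 50 bases in the longest Mapt, Map4, Map1b, Mapre3 or Hdac6 transcript occurred in a transcript of another gene. The largest share was that of Stmn1, since 36.5% of its 1011 stretches of 50 bases occurred elsewhere, in the processed pseudogene Gm11223 and in a small RNA within its own exons. The corresponding share was 4.62% for Map7, through an antisense transcript, 1.83% for Mapre1, 1.30% for Clasp1 and 0.274% for Map2. How the authors' counting treated strand and reads with several matches is not given in the sources used here, so the Stmn1 and Map7 counts carry that uncertainty.

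All 10 members passed the filter on low counts. Mapt passed it through MPC-PTX alone, so at its MPC level it could be tested only by being higher in MPC-PTX. With edgeR's quasi-likelihood test and a Benjamini-Hochberg adjusted p below 0.05, 1 member was higher in MPC-PTX (Mapt) and 2 were lower (Stmn1 and Map7), while 7 did not pass. That is 30% of the members, beside 29.7% of all 11795 genes tested, of which 14.1% were called higher and 15.6% lower. Without MPC replicate 3, 2 members were called higher and 5 lower, beside 52.5% of all genes. The median log2 fold change over the members was -0.09, against 0.04 over all genes tested, with 4 members positive and 6 negative. With a log2 fold change above 1 required as well, Mapt alone was called higher (background 3.54% higher), and no member was called lower by edgeR or by DESeq2 (background 4.2% lower). The libraries of MPC and MPC-PTX did not overlap in CPM for 7 of 10 members (70%), against 46.9% of all genes, with 2 members above and 5 below.

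**Figure D1:**
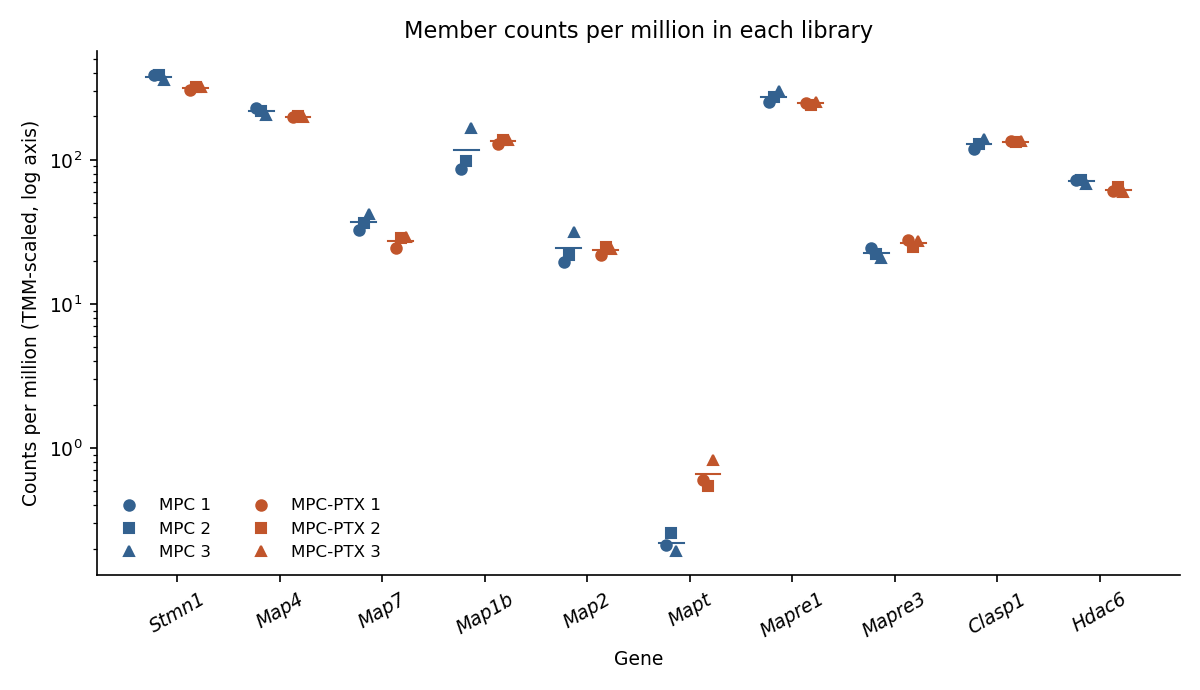
CPM (TMM-scaled, log axis) of each member in each library, with MPC in blue and MPC-PTX in orange, circles for replicate 1, squares for replicate 2, triangles for replicate 3 and a bar at each line's mean. Mapt, at 0.192 to 0.832 CPM, is the lowest and shows the widest gap between the lines, and Map1b shows the widest spread within MPC, from 86.0 to 167 CPM.

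Stathmin, encoded by Stmn1 (ENSMUSG00000028832, chr4:134468320-134473843), binds tubulin dimers and promotes depolymerisation. Its level was 389, 390 and 356 CPM in the MPC libraries and 304, 318 and 321 CPM in the MPC-PTX libraries. Every MPC-PTX library was below every MPC library, and the means were 379 ± 19.2 CPM (SD, n = 3) and 314 ± 9.22 CPM (SD, n = 3). Stmn1 fell by 0.27 on the log2 scale (SE 0.06, 95% interval -0.41 to -0.12, adjusted p = 0.0163), a mean lower by 17%. The call was kept under 10 of 14 alternatives and was lost when MPC replicate 2 or any 1 MPC-PTX library was left out (adjusted p = 0.0650 to 0.0927), settings under which 16% to 18% of all genes were called. The other stathmin genes, Stmn2, Stmn3 and Stmn4, had at most 6 counts in any library and were not tested. Stathmin is known as abundant in dividing cells. Of 10 proliferation genes 3 (Ccnb1, Cdk1 and Aurka) were lower and 0 higher by edgeR's test (3 at an unadjusted p below 0.05). That was 30%, beside 29.7% of all genes tested (15.6% lower and 14.1% higher), and 5 of the 10 estimates were positive. The summed level of the proliferation genes was 2747 to 3063 CPM in MPC and 2911 to 2948 CPM in MPC-PTX. Their part in the Stmn1 difference was not tested.

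Among the proteins of the lattice, Map4 (ENSMUSG00000032479, chr9:109931460-110083955) encodes the MAP that most tissues other than brain use. The 3 MPC libraries held 229, 218 and 206 CPM of Map4 and the 3 MPC-PTX libraries 198, 201 and 197 CPM. The lines did not overlap, but the lowest MPC library lay near the MPC-PTX values, and the log2 fold change was -0.13 (SE 0.06, 95% interval -0.27 to 0.01, adjusted p = 0.151), so Map4 was not called. Without MPC replicate 3 it was -0.22 (adjusted p = 0.00209). The ratio of Stmn1 to Map4 counts, which no library scaling changes, was 1.70, 1.79 and 1.73 in MPC and 1.53, 1.58 and 1.63 in MPC-PTX, with no overlap. Each MPC-PTX library thus held fewer Stmn1 counts per Map4 count than each MPC library. No test was run on this ratio.

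Map7 (ENSMUSG00000019996, chr10:20148471-20281590), also called ensconsin, encodes a lattice protein of epithelial cells that recruits kinesin-1. Its level was 32.6, 36.4 and 42.3 CPM in MPC and 24.6, 28.6 and 28.9 CPM in MPC-PTX. All MPC-PTX values lay below all MPC values, although the spread within MPC was wide, at 37.1 ± 4.86 CPM (SD, n = 3) against 27.4 ± 2.44 CPM (SD, n = 3). Map7 fell by 0.44 on the log2 scale (SE 0.12, 95% interval -0.72 to -0.16, adjusted p = 0.0312), the largest decrease among the members. The call was kept under 10 of 14 alternatives and was lost without MPC replicate 2 or any 1 MPC-PTX library (adjusted p = 0.0780 to 0.124). The 8 epithelial markers fell in the same direction, with a median log2 fold change of -0.81, and their part in the Map7 difference was not tested. In bulk RNA, fewer cells of a type and less RNA per cell cannot be told apart.

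Tau, encoded by Mapt (ENSMUSG00000018411, chr11:104231390-104332090), stabilises microtubules in axons. It was detected at the edge of the measurable range, with 4, 5 and 4 counts in the MPC libraries and 14, 12 and 14 counts in the MPC-PTX libraries. On the CPM scale these were 0.213, 0.258 and 0.192 in MPC and 0.598, 0.541 and 0.832 in MPC-PTX. Every MPC-PTX library was above every MPC library, and Mapt rose by 1.53 on the log2 scale (SE 0.38, 95% interval 0.63 to 2.42, adjusted p = 0.0222). Mapt passed the filter on low counts through MPC-PTX alone, and a gene this scarce in MPC could be tested only if it was higher in MPC-PTX. Neither the direction of the call nor the lack of overlap is therefore independent of the filter. The call was kept under 7 of 13 alternatives. The settings that lost it included DESeq2 (adjusted p = 0.0906) and leaving out MPC replicate 2 or any 1 MPC-PTX library (adjusted p = 0.0534 to 0.0836), and Mapt could not be tested when 10 counts were required in every library. The log2 fold change stayed between 1.35 and 1.65 throughout. Defining neuronal genes were near 0 in both lines: none of 12 neuron markers passed the filter, no marker exceeded 14 counts in a library, and their sum was 0.817 to 1.65 CPM in MPC and 0.992 to 1.25 CPM in MPC-PTX.

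Map2 (ENSMUSG00000015222, chr1:66175273-66442583) encodes the dendritic relative of tau. The MPC libraries had 19.7, 22.0 and 31.6 CPM and the MPC-PTX libraries 21.9, 24.8 and 24.0 CPM. The MPC-PTX values lay within the range of the MPC values, with a log2 fold change of -0.05 (SE 0.18, 95% interval -0.46 to 0.36, adjusted p = 0.845). The interval leaves room for a difference of up to 0.46 on the log2 scale. Without MPC replicate 3, the highest library, the value turned to 0.12 (adjusted p = 0.320). The ratio of Map2 to Map4 counts overlapped as well, at 0.0860, 0.101 and 0.153 in MPC and 0.111, 0.123 and 0.122 in MPC-PTX.

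Map1b (ENSMUSG00000052727, chr13:99421446-99516540) encodes a large MAP of growing axons. Its level was 86.0, 98.0 and 167 CPM in MPC and 128, 138 and 137 CPM in MPC-PTX. The MPC-PTX libraries lay above 2 MPC libraries and below the third, MPC replicate 3. With all libraries the log2 fold change was 0.20 (SE 0.24, 95% interval -0.37 to 0.76, adjusted p = 0.566). Without MPC replicate 3 it was 0.49 (adjusted p = 0.000387), and with a correction for GC content and length over all libraries it was -0.01 (adjusted p = 0.898). The size of the Map1b difference thus depended on MPC replicate 3, and its sign on the GC and length correction.

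Of the plus-end proteins, EB1 (Mapre1, ENSMUSG00000027479, chr2:153741274-153773310) is the core of the complexes that track growing ends. The MPC libraries held 251, 273 and 300 CPM of Mapre1, and the MPC-PTX libraries held 248, 241 and 250 CPM. The lines did not overlap, but the lowest MPC library and the highest MPC-PTX library were close, and the log2 fold change of -0.16 (SE 0.08, 95% interval -0.33 to 0.02, adjusted p = 0.159) did not pass the test. It passed with the GC and length correction (-0.42, adjusted p = 0.0206), without MPC replicate 1 (-0.22, adjusted p = 0.0288) and without MPC replicate 3 (-0.14, adjusted p = 0.0492). At 43.1%, its longest transcript had the lowest GC content among the members.

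EB3 (Mapre3, ENSMUSG00000029166, chr5:30814641-30866106) is a close relative of EB1 that is abundant in neurons and muscle. Its level was 24.6, 22.3 and 20.9 CPM in MPC and 27.6, 24.98 and 27.3 CPM in MPC-PTX. All MPC-PTX values were above all MPC values, by a narrow margin at the nearest pair, and the log2 fold change was 0.24 (SE 0.09, 95% interval 0.01 to 0.46, adjusted p = 0.105), not called. It was called with the GC and length correction (0.28, adjusted p = 0.0142) and without MPC replicate 1 (0.30, adjusted p = 0.0371), and the difference was smaller without MPC replicate 3 (0.13, adjusted p = 0.237). The ratio of Mapre1 to Mapre3 counts was 10.2, 12.2 and 14.3 in MPC and 8.99, 9.65 and 9.15 in MPC-PTX. The lines did not overlap in this ratio, and EB1 counts per EB3 count were lower in each MPC-PTX library; no test was run on it.

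Clasp1 (ENSMUSG00000064302, chr1:118389058-118612678) encodes a protein that promotes rescue of shrinking microtubules. Its level was 118, 128 and 139 CPM in MPC and 135, 133 and 134 CPM in MPC-PTX, so that the MPC-PTX values lay inside the MPC range. The log2 fold change was 0.06 (SE 0.07, 95% interval -0.11 to 0.23, adjusted p = 0.557). With the GC and length correction it turned to -0.17 (adjusted p = 0.251).

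Hdac6 (ENSMUSG00000031161, chrX:7930120-7947889), the cytoplasmic deacetylase of alpha-tubulin, was at 72.1, 72.3 and 68.2 CPM in MPC and at 60.4, 64.5 and 59.6 CPM in MPC-PTX. Every MPC-PTX library was below every MPC library. The log2 fold change was -0.20 (SE 0.07, 95% interval -0.37 to -0.04), and its adjusted p of 0.0630 did not pass. It passed with DESeq2's size factors in place of TMM (-0.24, adjusted p = 0.0481), with the GC and length correction (-0.22, adjusted p = 0.0151) and without MPC replicate 3 (-0.28, adjusted p = 0.00390). The direction was negative under all 14 alternatives.

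**Figure D2:**
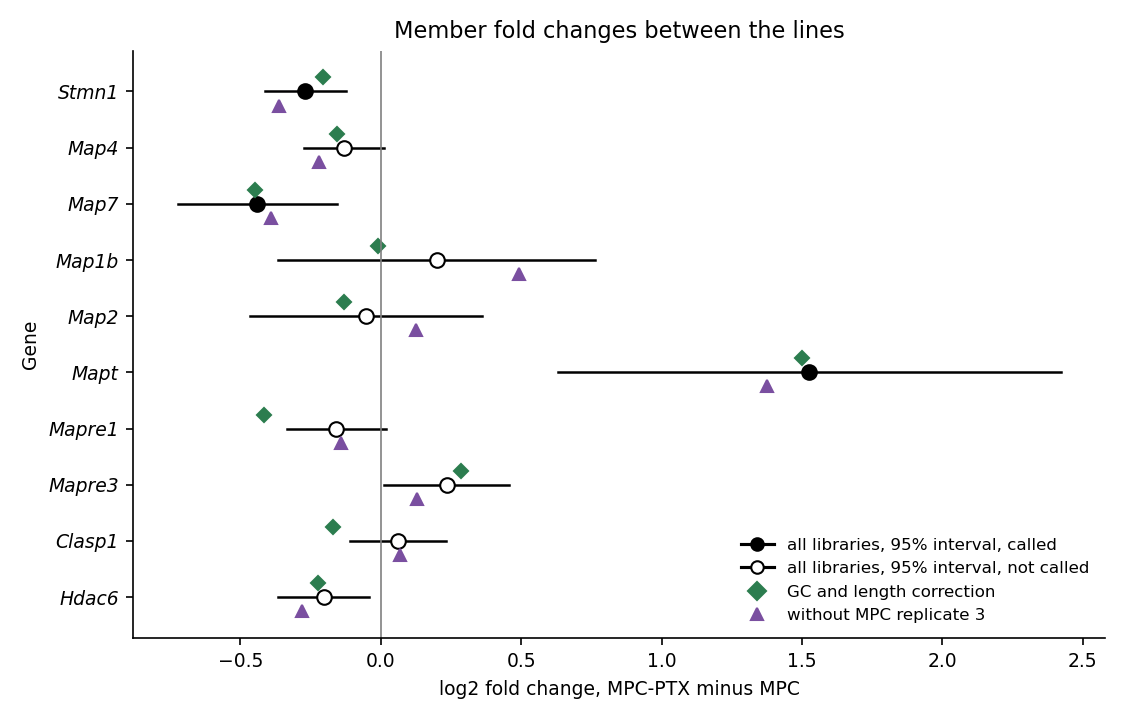
Log2 fold change of each member, MPC-PTX minus MPC, from all libraries (circles, filled where the adjusted p was below 0.05, with 95% intervals), with the GC and length correction (green diamonds) and without MPC replicate 3 (violet triangles). Mapt lies at 1.53 with the widest interval, the other members lie between -0.44 and 0.24, and Map1b moves from -0.01 to 0.49 between the 2 alternatives.

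Replicate 3 of MPC was the highest MPC library for 5 members and the lowest for the other 5. Against the mean of MPC replicates 1 and 2 it was 1.82-fold for Map1b and 1.52-fold for Map2. The ratio was 1.22-fold for Map7, 1.15-fold for Mapre1 and 1.13-fold for Clasp1, and it lay between 0.817 and 0.945 for Stmn1, Map4, Mapt, Mapre3 and Hdac6. Map1b has the longest annotated transcript among the members (11808 bases) and Stmn1 the shortest (1060 bases). The ratios did not follow length throughout, since Clasp1 (10265 bases) was at 1.13-fold and the lowest ratio, 0.817, was that of Mapt (5253 bases). By GC content of the longest transcript, the members at 0.817 to 0.945 lay at 51.1% to 55.1%. Mapre1, Map1b, Map2 and Clasp1 lay at 43.1% to 48.9%, while Map7, at 1.22-fold, lay at 52.9%. Within MPC-PTX the libraries were closer together: the SD of the CPM was smaller there than in MPC for 8 of 10 members, the exceptions being Mapt and Hdac6. The whole count table had the same trait, with a chi-square per gene of 1.84 to 3.36 within MPC-PTX and 14.9 to 60.7 within MPC.

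**Figure D3:**
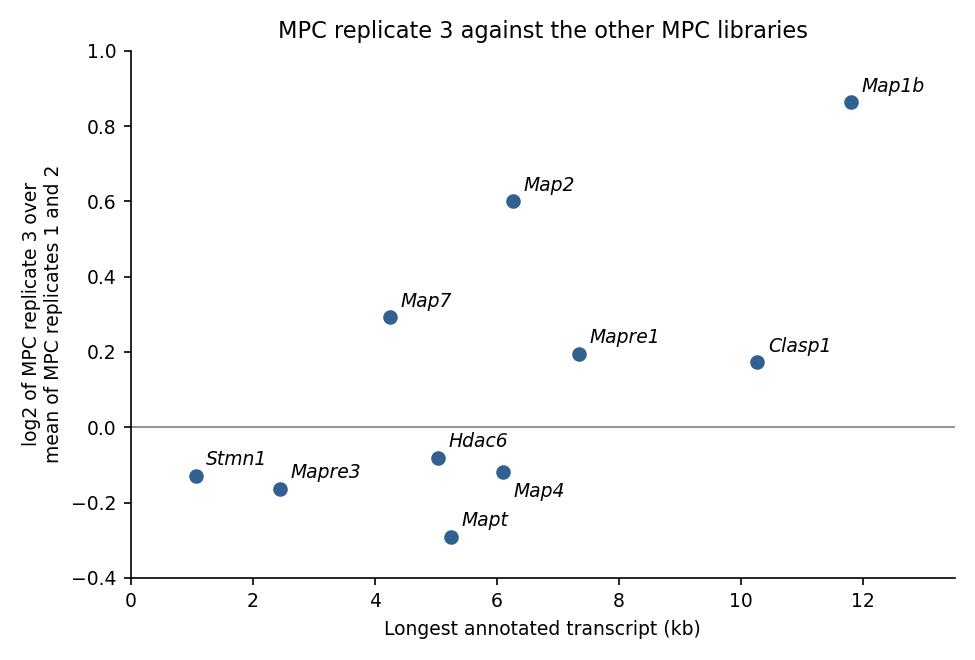
Log2 ratio of the CPM in MPC replicate 3 to the mean of MPC replicates 1 and 2 (vertical axis) against the length in kb of the longest annotated transcript (horizontal axis), 1 point per member. Map1b at 0.86 and Map2 at 0.60 lie highest, and Stmn1 at -0.13, Mapre3 at -0.16 and Mapt at -0.29 lie below 0.

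Levels could be ordered between genes only per length, here as CPM per kb of annotated exon. In MPC, Stmn1 was by far the most abundant member at 197 ± 9.97 (SD, n = 3), followed by Mapre1 at 35.2 ± 3.13. Map4 came next at 14.4 ± 0.759 and Hdac6 at 12.2 ± 0.394, and each of these 4 was separated from its neighbours by more than their SDs. Map1b at 7.39 ± 2.77, Mapre3 at 6.54 ± 0.533 and Clasp1 at 5.87 ± 0.471 did not differ beyond their spread in that order. Map7 followed at 4.68 ± 0.613 and Map2 at 1.48 ± 0.384. Mapt was last at 0.0293 ± 0.00446, far below every other member. MPC-PTX gave the same order of means, from Stmn1 at 164 ± 4.797 through Mapre1 at 31.5 ± 0.599 to Map2 at 1.43 ± 0.0894 and Mapt at 0.0872 ± 0.0205. Dividing by the longest transcript in place of all exons brought Map4 in MPC to 35.7, close to Mapre1 at 37.5, and put Clasp1 (12.5) above Map1b (9.92), so the middle of the order depended on the length used. Tau was therefore the scarcest member in MPC-PTX as in MPC, and Map4 the most abundant of the 3 genes with tubulin-binding repeats.

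**Figure D4:**
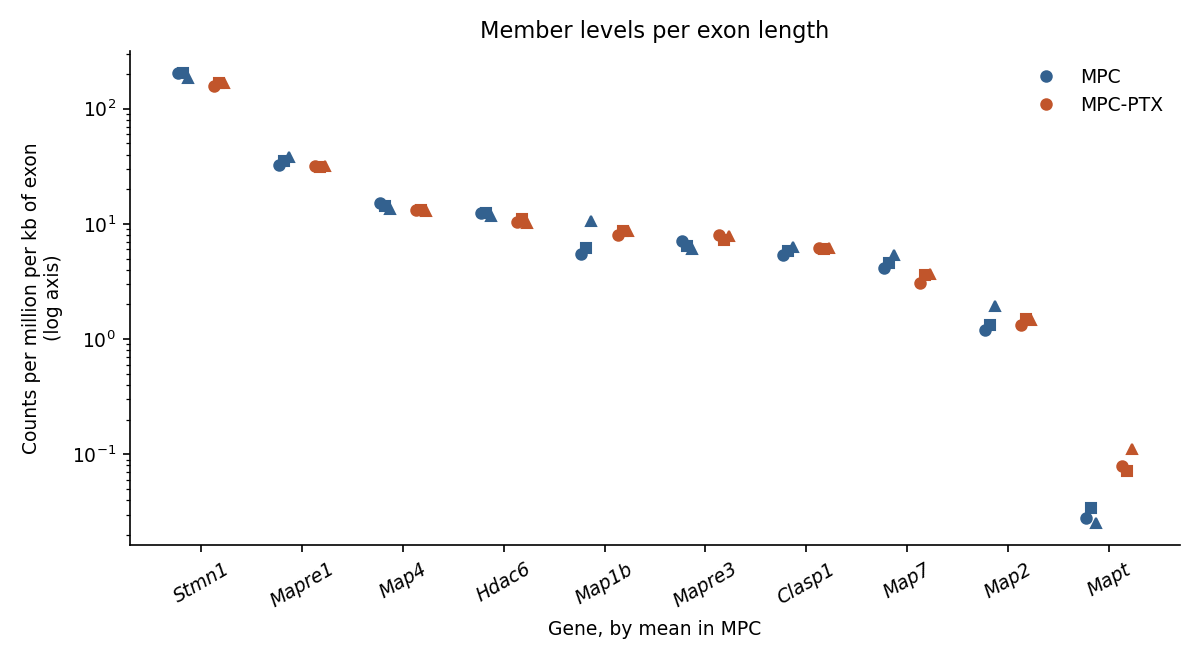
CPM per kb of annotated exon (log axis) for each member and library, ordered by the mean in MPC, with MPC in blue and MPC-PTX in orange and circles, squares and triangles for replicates 1, 2 and 3. Stmn1 is highest in both lines (means 197 and 164) and Mapt lowest (means 0.0293 and 0.0872).

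The surroundings of each member were described by the tested genes that start within 1 Mb. Around Stmn1, 26 of 35 neighbours had a positive log2 fold change (median 0.16), opposite in sign to Stmn1 itself. Around Map4 the median was -0.20 over 26 neighbours with 8 called lower and 1 called higher, around Hdac6 -0.14 over 25 neighbours with 6 called lower and 0 higher, and around Map7 -0.20 over 6 neighbours. Around Mapt the median was 0.20 over 11 neighbours with 2 called higher and 1 lower. These counts stand beside 14.1% called higher and 15.6% called lower over all genes tested. Over a member's whole chromosome the median was 0.20 for Stmn1, -0.07 for Map4, -0.05 for Hdac6, -0.18 for Map7 and 0.09 for Mapt. The medians around Stmn1 and Map7 were thus near those of their chromosomes. Over the 10 members, 7 had the sign of their neighbours' median, a description for which no test was run.

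Beyond the members, 94 other genes for microtubule regulators were in the table and 71 were tested, of which 10 were called higher and 7 lower in MPC-PTX. That was 23.9%, beside 29.7% of all genes, with a median log2 fold change of 0.14 beside 0.04. Without MPC replicate 3, 27 were called higher and 14 lower, beside 52.5% of all genes, and with the GC and length correction 19 and 12, beside 41.8%. Among 9 other lattice-binding MAPs, 3 (Map1a, Dclk1 and Dclk2) rose and 0 fell by edgeR's test, while 4 had an unadjusted p below 0.05. All 3 had at most 5 counts in each MPC library and passed the filter on low counts through MPC-PTX alone, as Mapt did, so a gene this scarce in MPC could be tested only where it was higher in MPC-PTX. With 10 counts required in every library, 0 of the lattice-binding MAPs, members included, were called higher. Map1a, a relative of Map1b found in mature neurons, had 4, 3 and 1 counts in MPC and 20, 20 and 16 in MPC-PTX (log2 fold change 2.67, SE 0.44, adjusted p = 0.00424). Dclk1, a doublecortin-like kinase that binds microtubules, had 4, 3 and 5 counts in MPC and 15, 12 and 18 in MPC-PTX (1.82, SE 0.44, adjusted p = 0.0202), and the call was lost without MPC replicate 2 (adjusted p = 0.0760), MPC-PTX replicate 1 (0.0554) or MPC-PTX replicate 3 (0.0680). Its relative Dclk2 had 5, 2 and 5 counts in MPC and 56, 31 and 26 in MPC-PTX (3.10, SE 0.42, adjusted p = 0.00174). All 4 genes of the list that rose, Mapt included, were under 3 CPM in every library.

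Among 21 other plus-end proteins, 4 rose and 3 fell. With the 3 members counted in, the list had 4 higher and 3 lower calls (29.2%, beside 29.7% of all genes). Without MPC replicate 3 it had 12 and 5, in a setting that called 52.5% of all genes. The largest change was in Tacc1, which encodes a coiled-coil protein of the centrosome and plus end, with 118, 122 and 183 counts in MPC and 458, 372 and 282 in MPC-PTX. Its mean went from 7.12 to 17.7 CPM (log2 fold change 1.31, SE 0.16, adjusted p = 0.00113), and the call was kept under all 14 alternatives. The remaining calls, named here after their values were seen, were Clip4 (0.75), Slain2 (0.42) and Nav3 (0.89) among the higher, and Mapre2 (-0.45), Clip2 (-0.44) and Tacc3 (-0.23) among the lower. Mapre2 encodes EB2, the third member of the end-binding family, so in that family EB2 fell, while EB1 (-0.16) and EB3 (0.24) did not pass. Whether these 3 fold changes differ from each other was not tested.

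Of 8 severing proteins, 2 rose and 1 fell (37.5%, beside 29.7% of all genes). Fignl2, a fidgetin-like gene, had 218, 313 and 349 counts in MPC and 176, 135 and 117 in MPC-PTX, and fell by 1.11 on the log2 scale (SE 0.17, adjusted p = 0.00305), under all 14 alternatives. Katnal1 (0.63), which encodes a katanin-like catalytic subunit, and Fignl1 (0.28) rose, and were named after their values were seen; 0 severing genes were called higher without MPC replicate 2 or without MPC-PTX replicate 3. None of the 3 minus-end CAMSAP genes was called by edgeR or DESeq2, and 0 had an unadjusted p below 0.05 (Camsap2 0.33, adjusted p = 0.358; Camsap3 -0.15, adjusted p = 0.190). On leaving out MPC replicate 3, edgeR called Camsap2 higher (0.62, adjusted p = 0.00245) and Camsap3 lower (-0.22, adjusted p = 0.0400), beside 52.5% of all genes called.

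Among other genes for the modification of tubulin, 1 rose and 1 fell. Tested were 2 genes for acetylation, 4 for tyrosination and 14 for glutamylation and glycylation. Over all genes tested, 14.1% were called higher and 15.6% lower. Sirt2, the other deacetylase of alpha-tubulin, rose by 0.30 on the log2 scale (SE 0.08, adjusted p = 0.0320), from 43.4, 44.3 and 38.4 CPM in MPC to 53.8, 52.4 and 49.4 CPM in MPC-PTX, a call kept under 7 of 14 alternatives, and the value was 0.19 without MPC replicate 3. The acetyltransferase Atat1 was at 5.10, 7.68 and 8.02 CPM in MPC and 5.38, 4.19 and 5.11 CPM in MPC-PTX and was not called (-0.51, SE 0.20, adjusted p = 0.104), but was called without MPC replicate 1 (-0.68, adjusted p = 0.0129). The estimates for the 2 deacetylases thus had opposite signs, with Hdac6 at -0.20 not past the test. Vash1, a vasohibin that removes the terminal tyrosine of alpha-tubulin, fell by 0.75 (SE 0.15, adjusted p = 0.0101; 0.0543 without MPC-PTX replicate 1), while the tyrosine ligase gene Ttl did not pass (0.14, adjusted p = 0.206). Of the 14 tested genes for glutamylation and glycylation 0 were called by edgeR and 0 by DESeq2, beside 29.7% and 28.9% of all genes. Of these 14, 3 had an unadjusted p below 0.05, and the nearest were Ttll4 (0.32, adjusted p = 0.0538) and Agbl3 (0.37, adjusted p = 0.0623). The count of 0 rested on MPC replicate 3. Without that library 3 were called higher and 4 lower, beside 52.5% of all genes, with Ttll4 among the higher (0.39, adjusted p = 0.000242). With the GC and length correction 1 was higher and 3 were lower, beside 41.8% of all genes, and Ttll4 was at 0.07 (adjusted p = 0.634). With library size alone as scaling 2 were higher, beside 30.7% of all genes called in either direction.

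Among kinases and spindle proteins that act on the same polymers, 1 of 3 tested MARK kinases and 1 of 7 spindle proteins fell, and 0 rose by edgeR's test. Over all genes tested, 15.6% were called lower and 14.1% higher. Leaving out MPC replicate 3 gave 3 spindle proteins called higher and 2 lower, beside 52.5% of all genes called. With the GC and length correction 1 spindle protein was higher and 2 were lower, beside 41.8% of all genes called. Mark2, one of the kinases that phosphorylate tau, MAP2 and MAP4 and release them from microtubules, fell by 0.25 on the log2 scale (SE 0.05, adjusted p = 0.0130). The call was kept under 10 of 14 alternatives and lost without MPC replicate 2 or any 1 MPC-PTX library (adjusted p = 0.0539 to 0.0780). Mark4 was not called (0.17, adjusted p = 0.161), except with the GC and length correction (0.18, adjusted p = 0.0497). Of 7 spindle proteins, Tpx2, which activates Aurora A on the spindle, fell by 0.28 (SE 0.09, adjusted p = 0.0499), a call kept under 8 of 14 alternatives, and Numa1 did not pass (-0.14, adjusted p = 0.108), but was called lower without MPC replicate 3 (-0.18, adjusted p = 0.0146).

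**Figure D5:**
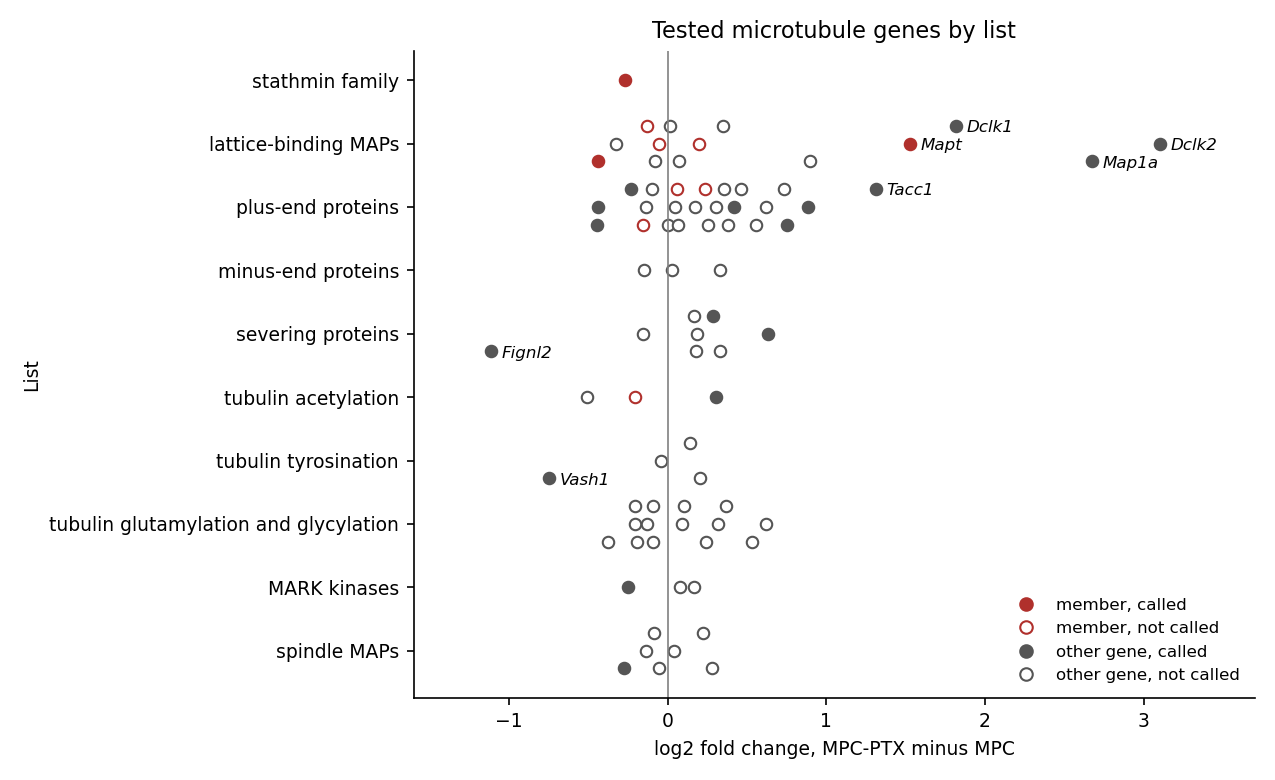
Log2 fold change, MPC-PTX minus MPC, of every tested microtubule gene (1 point per gene) by list, with members in red and other genes in grey, filled where the adjusted p was below 0.05; the height within a list has no meaning. The largest increases drawn are Dclk2 at 3.10, Map1a at 2.67, Dclk1 at 1.82 and Mapt at 1.53, all lattice-binding MAPs. These genes had at most 5 counts in each MPC library and passed the filter on low counts through MPC-PTX alone. Genes this scarce in MPC could be tested only where they were higher in MPC-PTX. Fignl2 at -1.11 holds the largest decrease.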

How the data were processed

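Poly-A selected RNA of 6 libraries was sequenced. Per the labels and the study's methods, the authors used fastp 0.22.0 for read filtering and HISAT2 for mapping, and deposited raw counts per gene, neither normalized nor pooled; the genome release, the counter, its use of strand and its handling of reads with several matches are not given in the sources used here. The tables of the series and of the samples held equal counts. Totals were 16574580 to 23148182 per library. A filter on low counts (filterByExpr with the line as group, minimum count 10) came before TMM scaling and the quasi-likelihood test of edgeR 4.0.16 in R 4.3.3 (robust glmQLFit, then glmQLFTest) on group alone, with Benjamini-Hochberg adjustment over all 11795 genes tested. A gene was called at an adjusted p below 0.05. CPM values are TMM-scaled, and intervals are 95%. Alternatives were DESeq2 1.42.0, other scalings and filters, a replicate block, a loess correction for GC content and length, and leaving out each library.

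The members and lists were chosen with earlier results of these data known. Named were all members, other listed genes called with an absolute log2 fold change above 1 and, for a list without one, its up to 2 genes with the lowest adjusted p; names outside this rule are marked. Of 96 other listed symbols 2 (Matcap1 and Matcap2) were not matched and are not analysed here. Positions, lengths, GC content and coding sequences came from GENCODE M21 (GRCm38) by gene identifier, which may not be the authors' annotation. Exon overlap and shared 50-base stretches were counted in its transcripts on both strands. Figures were drawn with matplotlib 3.10.9.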

Additional observations from a re-analysis of the deposited data

How the results depend on the processing

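Counts of called members depended on the setting. The count of members called higher, 1 in the report, was 0 with DESeq2, 0 with at least 10 counts required in every library and 0 with the replicate block (Mapt, adjusted p = 0.0521); it was 2 with the GC and length correction and 2 with that correction and the replicate block together, and 0 to 2 on leaving out 1 library. With a log2 fold change above 1 it was 0 with DESeq2, 0 with 10 counts in every library, 0 with the replicate block, 0 with a test against that fold (glmTreat) and 0 to 1 on leaving out 1 library. Members called lower, 2 in the report, were 4 with the GC and length correction, 4 with the replicate block added to it, and 0 to 5 on leaving out 1 library (5 without MPC replicate 3). Other microtubule genes called higher, 10 in the report, were 6 with 10 counts in every library, 16 with the replicate block, 19 with the GC and length correction, 18 with both, and 5 to 27 on leaving out 1 library (27 without MPC replicate 3); those called lower, 7 in the report, were 12 with the GC and length correction and 2 to 14 on leaving out 1 library (14 without MPC replicate 3). Signs turned for Map2 without MPC replicate 3 (0.12; -0.19 to 0.12 on leaving out 1 library), for Map1b with the GC and length correction (-0.011, and -0.0084 with the replicate block) and for Clasp1 (-0.17, and -0.16 with the replicate block); the cause was not tested. Over all genes, 52.5% were called without MPC replicate 3 and 16% to 18% without MPC replicate 2 or 1 MPC-PTX library, where fewer libraries were tested. Libraries of the lines with equal replicate numbers correlated at 0.15, -0.023 and 0.17 in their deviations, and 3 of 6 libraries correlated best with their own number. The labels do not say that equal numbers share a culture or day, and so few libraries cannot decide it. Mapt, at 4 to 14 counts, sits at the limit that depth sets.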
